A study of Mus musculus with 2 samples.

Results

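The 9 genes Mbp, Mobp, Mag, Mog, Cnp, Mal, Cldn11, Opalin and Ermn code for proteins of the myelin sheath, and they were followed here through the hippocampus of wild-type and Pigv341E knock-in mice. They were chosen by name as 9 of the 30223 gene rows of the deposited table, and the rule uses no measured value. Myelin is the membrane that oligodendrocytes wrap around axons. In the brain, precursor cells leave the cell cycle, pass through a short newly formed stage and become mature oligodendrocytes, and the genes of the sheath are switched on along that path. Compact myelin is held together on its cytoplasmic side by Mbp, which is essential for compaction. Mobp also lies there, Mag lies in the layer next to the axon, and Mog lies on the outermost face of the sheath. Cldn11 seals the layers with tight junctions, and Cnp sits in the channels that stay open.

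The wild-type group was of strain C57Bl.6/J with no edited allele, and the knock-in group was homozygous for Pigv341E on the same strain. Pigv codes for an enzyme that builds the glycosylphosphatidylinositol (GPI) anchor. Age and sex are not given in the labels. For each genotype 8 hippocampi from 4 mice were broken up by mechanical means at low temperature and their cells pooled, so that each genotype is 1 droplet library (10x Genomics), the mice cannot be told apart and neither can genotype and library. With 1 library per genotype there is no replicate and no test, and both values are given side by side. A point change in the coding sequence is not read by transcript levels, so these values do not check the genotype labels. The table held 7094 wild-type and 8836 knock-in cells, with median totals of 8631 and 9608 per cell. Its whole-number values were taken as already corrected for depth, an inference from the table's name and its narrow totals that the labels do not state, so sequencing depth is unknown and a value of 1 need not be 1 observed molecule. A level below is what a gene contributes to the total of all values in a group of cells, per 10000. The libraries shared 28 cell barcodes, and doublet calls (61 wild-type and 209 knock-in cells) were kept. Intervals on shares of cells are exact (Clopper-Pearson, 95%) and cover counting error only.

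Cells were grouped without use of the 9 genes, and groups were named by other markers, so every name ends in "-like". The oligodendrocyte lineage held 190 wild-type and 259 knock-in precursor-like cells, 24 and 28 newly formed-like cells, and 1467 and 1424 mature-like cells. The mature-like share of a library was 20.7% for wild-type and 16.1% for knock-in. The names were checked against the markers. The summed level of 14 newly formed markers, among them Bmp4 and Enpp6, was 140.1 and 160.7 in newly formed-like cells of the wild-type and knock-in library. It was 19.1 and 19.7 in precursor-like cells and 10.6 and 11.0 in mature-like cells. The summed level of 10 precursor markers was 184.2 and 193.1 in precursor-like cells, but still 117.1 and 148.1 in newly formed-like cells, and 3.44 and 3.11 in mature-like cells. Newly formed-like cells thus carried genes of both marker lists; Tnr, at 81.3 and 101, made up most of their precursor sum, while the precursor marker Pdgfra was at 0.0486 and 0.0802.

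Before the levels, the upstream sequence of 4 members is shown: Mag and Cldn11, whose level was already high in part of the newly formed-like cells, and Mal and Ermn, whose level was not. RefSeq promoter sequences (build GRCm38.p6) matched 8 of the 9 members. Each line below holds the 250 bases before the annotated start, 5′ to 3′ on the strand of the gene. Capitals mark the core letters bound by SOX factors such as Sox10 (ACAAAG or ACAATG) and those bound by Myrf (CTGGCAC or CTGGTAC), both master regulators of the lineage, and an E-box (CAGATG), searched on both strands. No match overlapped another.
Mag: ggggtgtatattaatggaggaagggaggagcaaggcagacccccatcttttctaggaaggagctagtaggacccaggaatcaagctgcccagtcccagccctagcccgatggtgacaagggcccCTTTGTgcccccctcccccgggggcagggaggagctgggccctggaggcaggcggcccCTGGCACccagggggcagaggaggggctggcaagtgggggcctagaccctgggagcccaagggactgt
Cldn11: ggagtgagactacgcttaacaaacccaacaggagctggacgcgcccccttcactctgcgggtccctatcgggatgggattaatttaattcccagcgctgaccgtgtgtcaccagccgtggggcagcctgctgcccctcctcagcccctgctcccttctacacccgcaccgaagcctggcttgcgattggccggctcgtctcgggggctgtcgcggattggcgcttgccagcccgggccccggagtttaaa
Mal: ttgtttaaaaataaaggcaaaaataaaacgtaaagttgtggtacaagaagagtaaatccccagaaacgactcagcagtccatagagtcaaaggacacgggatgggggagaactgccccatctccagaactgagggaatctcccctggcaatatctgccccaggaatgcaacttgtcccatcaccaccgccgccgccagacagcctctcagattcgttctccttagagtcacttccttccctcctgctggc
Ermn: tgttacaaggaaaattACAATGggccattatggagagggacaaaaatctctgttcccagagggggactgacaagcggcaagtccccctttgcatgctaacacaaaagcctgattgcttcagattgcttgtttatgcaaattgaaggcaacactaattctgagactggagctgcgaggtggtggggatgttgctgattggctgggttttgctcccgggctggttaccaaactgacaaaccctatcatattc
The Mag window is chr7:30914864-30915113 on the minus strand and its last 10 bases lie inside the GENCODE model of the gene. The Cldn11 window is chr3:31149670-31149919 on the plus strand, the Mal window chr2:127656696-127656945 and the Ermn window chr2:58052865-58053114, both on the minus strand, and these 3 end at the GENCODE gene start. The Mag window held 1 SOX match and 1 MYRF match, the Ermn window 1 SOX match, and the Cldn11 and Mal windows none of these letters. Over the 8 members, 5 windows (Cnp, Ermn, Mag, Mobp, Opalin) held a SOX match, against 25.2% of 32851 RefSeq windows of the same length. A MYRF match stood in 3 of the 8 (Cnp, Mag and Mog), against 5.93% of all windows. The E-box was found in Opalin alone of the 8, against 14.4% of all windows. These letters did not sort the members by stage: both high and low members of the newly formed stage had a window with a match and a window without.

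Along the lineage the 9 genes fell into separate courses. Between precursor-like and mature-like cells all 9 rose past the size rule in both libraries. That rule asks for a doubling or halving on log2 of level plus 0.1, a level of at least 1 per 10000 in the higher group and at least 10% of its cells above 0. The background for a rise was 19% of 2368 genes with wild-type cells and 19.8% of 2344 with knock-in cells. Between precursor-like and newly formed-like cells the same 6 members rose in each library (Mbp, Mobp, Mag, Mog, Cnp and Cldn11), with a background of 17.4% of 2363 and 16.2% of 2325 genes. Opalin, Mal and Ermn did not pass it. From newly formed-like to mature-like cells, Mog, Mal, Opalin and Ermn rose in both libraries and Mobp among knock-in cells only, with backgrounds of 17.5% and 17.8% of genes; whether the libraries differ in Mobp was not tested. No member fell past the rule at either step. At the first step only Mbp had the precursor-like level of at least 1 that a fall past the rule requires. Mal in the knock-in library went from 0.54 to 0.16 (log2 ratio -1.31), below that level.

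Mbp, the basic protein of compact myelin, had a level of 1.18 in precursor-like, 30.3 in newly formed-like and 24.1 in mature-like cells of the wild-type library. In the knock-in library these levels were 1.19, 21.6 and 23.7. Mbp in newly formed-like cells thus stood at 125% and 91.2% of the mature-like level. Mag, a sialic acid-binding adhesion protein of the layer next to the axon, had levels of 0.48, 10.7 and 11.0 in the wild-type and 0.33, 7.90 and 11.1 in the knock-in library. Cldn11, the tight junction protein of the sheath, had levels of 0.35, 3.89 and 4.17 in the wild-type and 0.35, 2.69 and 4.49 in the knock-in library. Mbp, Mag and Cldn11 were at more than 50% of the mature-like level in newly formed-like cells of both libraries. So was Cnp, an enzyme bound to the membrane and the cytoskeleton, with levels of 0.53, 1.46 and 1.96 in the wild-type and 0.60, 1.40 and 2.41 in the knock-in library. Cnp also had the highest precursor-like value of all 9 as a share of its mature-like level, 27.0% and 24.8%.

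Mobp, a small basic protein of the same layer as Mbp, had levels of 0.19, 6.32 and 7.45 in the wild-type library. Its knock-in levels were 0.18, 3.65 and 7.76, which put newly formed-like cells at 84.7% and 47.0% of the mature-like level in the 2 libraries. Mog, an immunoglobulin-type protein on the outermost face of the sheath, had levels of 0.34, 1.94 and 8.39 in the wild-type and 0.28, 1.44 and 8.57 in the knock-in library. Mog was therefore only at 23.2% and 16.8% of its mature-like level in newly formed-like cells.

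Opalin, a membrane glycoprotein of oligodendrocytes, had levels of 0.12, 0.44 and 2.67 in the wild-type and 0.12, 0.28 and 2.54 in the knock-in library. Mal, a proteolipid of membrane sorting, had levels of 0.41, 0.44 and 3.92 in the wild-type and 0.54, 0.16 and 4.52 in the knock-in library. Newly formed-like cells reached 16.4% and 11.0% of the mature-like level for Opalin, and 11.1% and 3.55% for Mal (10.5% and 12.02% in precursor-like cells). Ermn, an actin-binding protein, had no value above 0 in the 52 newly formed-like cells (0 of 24 and 0 of 28, exact upper bounds of 14.2% and 12.3% on the share of cells with such a value, not on cells expressing the gene), and had levels of 1.08 and 1.15 in mature-like cells. In precursor-like cells Ermn was at 0.038 and 0.037. Per cell, the median number of the 9 genes above 0 was 1 in precursor-like, 3 in newly formed-like and 7 in mature-like cells, in both libraries alike.

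The newly formed-like cells were not uniform. In the first clustering, 34 of the 52 (14 wild-type, 20 knock-in) had grouped with the precursors and are called early below, and 18 (10 and 8) had grouped with the mature cells and are called late. This split also left the 9 genes out, but it was looked at after their levels were known, and early and late name places among the clusters, not measured times. Early cells held Bmp4 (level 3.98, late cells 0) and Gpr17 (4.40, late cells 0.61). Late cells held Prom1 (7.01, early cells 0.14) and Cldn14 (6.70, early cells 0), while Enpp6 was at 5.36 in early and 4.87 in late cells. These marker levels combine both libraries.

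In early cells Cnp was at 1.75 for wild-type and 1.64 for knock-in cells, or 89.6% and 67.9% of its mature-like level. Few cells carried these sums: a value of 2 or more was seen in 5 of 14 and 4 of 20 cells. The median value was 0.5 and 1, and the highest 6 and 15. Mbp was at 4.56 and 9.94 in early cells, 18.9% and 41.9% of the mature-like level, and a value of 2 or more was seen in 8 of 14 and 12 of 20 cells. Mag was at 0.088 and 2.03, Cldn11 at 0.26 and 1.52, and Mobp at 0.18 and 0 in the same cells. The early stage thus held Cnp and some Mbp with little Mobp, and the libraries were apart for Mag and Cldn11 there, over few cells.

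In late cells Mbp was at 62.2 and 50.3, more than double the mature-like level of each library (258% and 212%), and every one of the 18 cells had a value of 2 or more. Mag was at 24.0 and 22.2 (219% and 201% of mature-like), also with 2 or more in all 18 cells. Cldn11 was at 8.39 and 5.53 (201% and 123%) and Mobp at 13.9 and 12.6 (187% and 162%). These 4 genes were higher in late newly formed-like than in mature-like cells of both libraries. The other 5 were below their mature-like level: Cnp at 55.6% and 34.4%, Mog at 50.6% and 41.9%, Opalin at 36.7% and 38.1%, Mal at 16.7% and 3.06%, and Ermn at 0. Single cells weighed heavily in some of these shares. The highest Mog value among the 10 wild-type cells was 22 (median 2.5). The highest Opalin value among the 8 knock-in cells was 5 (median 0). The direction against the mature-like level in late cells was the same in both libraries for each of the 9 genes. That level pools all mature-like clusters, and some stood higher than the late cells. In a mature-like cluster led by Cryab, Mag was at 29.8 and 33.5, Cldn11 at 24.9 and 29.1 and Mobp at 17.0 and 19.7. Mbp was at 38.2 and 43.3 there, below the late cells. The share of late cells differed between the libraries (10 of 24 and 8 of 28), and it moves with the lower knock-in levels of Mbp, Mag, Mobp and Cldn11 over all newly formed-like cells; its part in them was not tested.

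**Figure D1:**
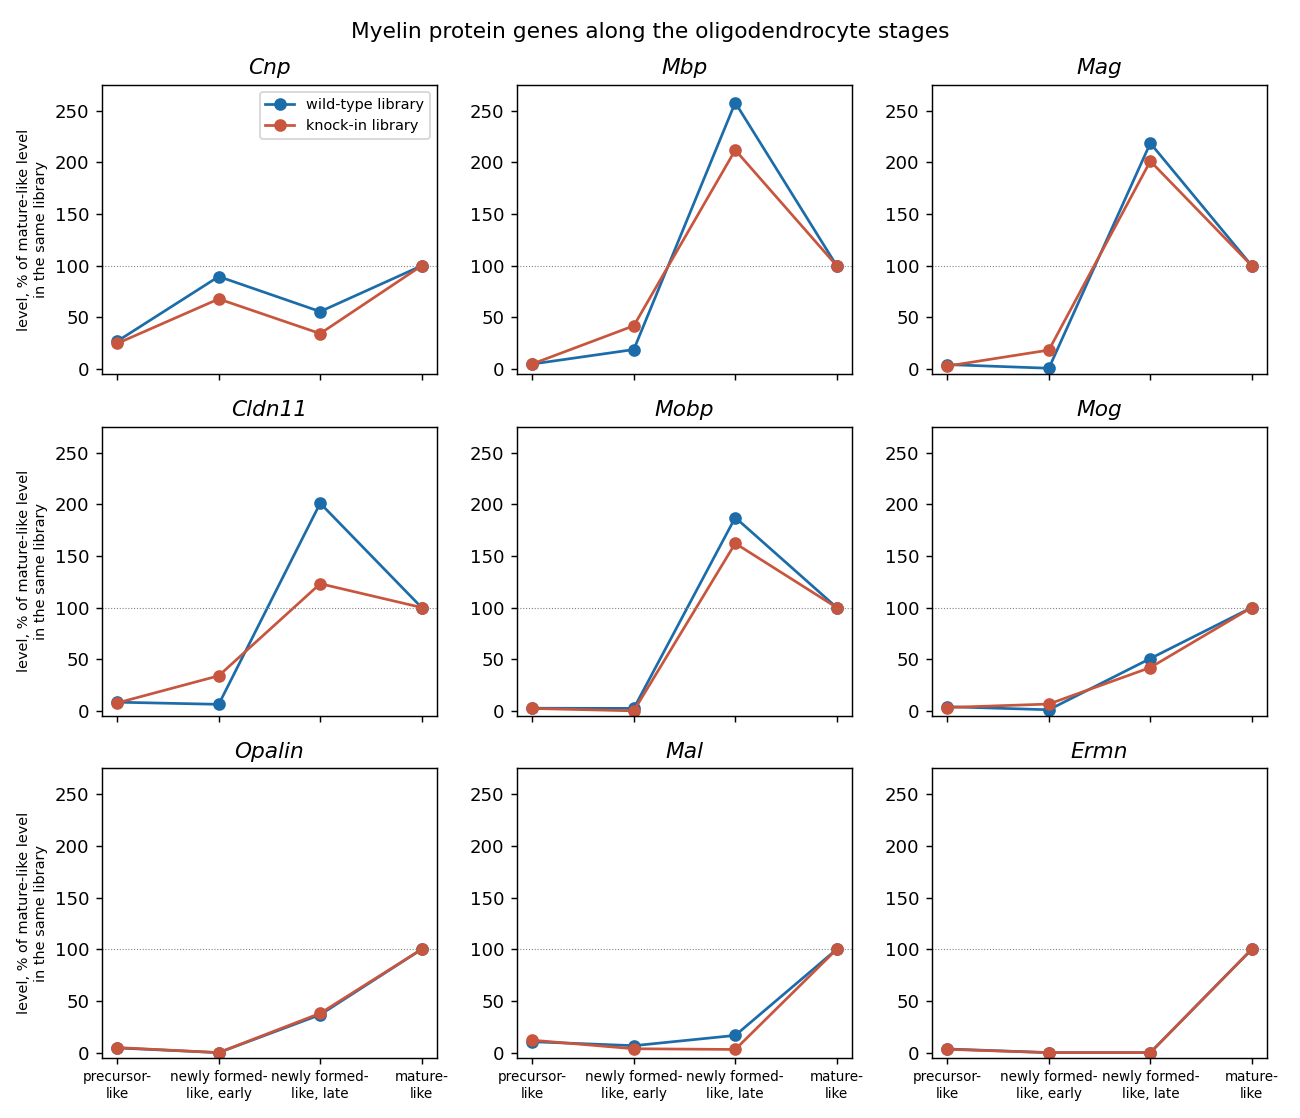
Level of each myelin protein gene as a percent of its mature-like level in the same library (y axis, percent) in precursor-like, early and late newly formed-like and mature-like cells (x axis), wild-type library in blue and knock-in library in red, 1 library each. Mbp, Mag, Cldn11 and Mobp stand above 100% in late newly formed-like cells, while Opalin, Mal and Ermn stay below 40%.

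Other genes of the lineage, from lists chosen by function, showed both courses. Nfasc, an adhesion protein of the axon contact, was at 79.6 and 70.3 in newly formed-like against 13.5 and 15.01 in mature-like cells. Qk, an RNA-binding protein that acts on the Mbp messenger, was at 66.3 and 78.9 against 61.3 and 63.6. Prr5l took the other course, at 0.34 and 0.12 against 25.6 and 26.6. Fa2h, an enzyme of myelin lipids, was at 5.64 and 3.85 against 7.34 and 6.68. Myrf, the factor that drives the genes of the sheath, was picked after its values were seen and was at 1.31 and 1.64 in newly formed-like and at 1.27 and 1.21 in mature-like cells.

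In mature-like cells most of the 9 genes had nearly the same level in both libraries, and Cnp and Mal differed most. None of the 9 passed the size rule between knock-in and wild-type, and 9 of the 1966 genes tested did (0.458%). The largest ratio was that of Cnp, 1.96 for wild-type and 2.41 for knock-in cells, a log2 ratio of 0.29. Mal followed with 3.92 and 4.52 (0.20), and Cldn11 with 4.17 and 4.49 (0.10). Opalin was lowest with 2.67 and 2.54, a log2 ratio of -0.07, and Mbp was at 24.1 and 23.7 (-0.02). The remaining 4 lay between 0.01 (Mag) and 0.09 (Ermn). The median over the 9 genes was 0.06, beside a median of -0.08 over all genes tested, whose central 95% ran from -0.34 to 0.39. All 9 ratios lay inside that range, but also above that median of all genes tested. The share of tested genes with a ratio at or below that of the member ran from 53.3% (Opalin) to 96.4% (Cnp).

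The cells behind these levels overlapped broadly. For Mbp, the value per mature-like cell had a median of 18 in both libraries, with quartiles of 13 and 25 for wild-type and 13 and 24 for knock-in cells. For Mag the median was 8 in each, for Mog 6 in each, for Mobp 5 in each, and for Mal and Opalin 2 in each. Cnp had a median of 0 for wild-type and 1 for knock-in cells, and 46.0% of wild-type cells (95% interval 43.4 to 48.6%) and 55.8% of knock-in cells (53.2 to 58.4%) were above 0. Mbp was above 0 in all 1467 wild-type and in 1423 of 1424 knock-in cells.

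The mature-like clusters were split unevenly between the libraries. A cluster led by 9330111N05Rik and Abl1 held 459 wild-type and 50 knock-in cells, and a cluster led by Hdc held 36 and 522. Few genes set them apart from the other mature-like cells of the same library. For the first, 0.438% of 2055 genes passed the rule in the wild-type and 1.04% of 2023 in the knock-in library. For the second, 1.37% of 2110 and 0.209% of 1918 did. Make-up and library thus cannot be told apart in such clusters. Within 9 mature-like clusters with at least 10 cells in each library, the median ratio of the members was below 0 in 7 and above 0 in 2, from -0.26 to 0.17. When the clusters were weighted equally, the log2 ratio of Cnp fell from 0.29 to 0.08 (0.075) and that of Mal from 0.20 to 0.07 (0.066), and the median of the 9 genes became -0.04 (-0.035). In that weighting a cluster led by Cryab, of 15 wild-type and 18 knock-in cells, counted as much as any other. Its Cnp was at 39.2 and 42.6 and its Mal at 57.9 and 64.1, far above the other clusters. The weighted ratios of Cnp and Mal thus rest largely on these few cells. Summed levels of markers of other cells also moved with the library in mature-like cells. The 10 microglia markers were at 1.17 for wild-type and 2.03 for knock-in cells (10 of 10 higher, none at 0), and the 4 red blood cell markers at 0.052 and 10.6. Their part in the ratios was not tested.

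**Figure D2:**
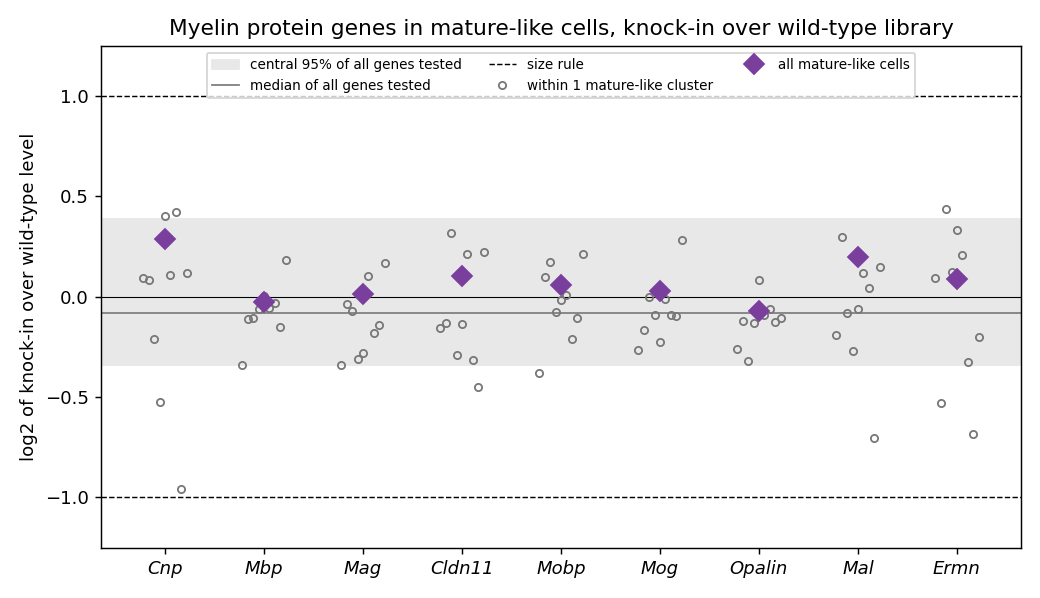
Log2 of knock-in over wild-type level (y axis) for each myelin protein gene (x axis) in all mature-like cells (diamonds) and within each of 9 mature-like clusters (circles), with the median and the central 95% of all genes tested as line and grey band and the size rule of 1 as dashed lines. All 9 diamonds lie between -0.07 and 0.29, inside the band, and the circles of most genes fall on both sides of 0.

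In the lists of other lineage genes no gene passed the rule between the libraries in mature-like cells. They held 6 transcription factors, 11 other membrane proteins, 7 lipid enzymes, 12 cytoskeletal genes, 11 secreted or carrier genes, 2 partners of the Mag receptors and 4 RNA-binding or transport genes that could be tested. The list medians ran from -0.07 to 0.07. Among them Ptgds, which makes prostaglandin D and is abundant in meningeal cells too, was singled out after its values were seen and was at 10.5 for wild-type and 18.9 for knock-in cells, a log2 ratio of 0.83 (0.835), short of the rule.

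In precursor-like cells the members were near background in both libraries, and only Mbp reached a level of 1 per 10000. Its log2 ratio of knock-in over wild-type was 0.01, where 0.556% of 1978 genes passed the rule. Over all cells together 6 members reached that level and none passed (0.289% of 2075 genes did). Mbp was at 5.46 for wild-type and 4.41 for knock-in cells (-0.30), Mag at 2.32 and 1.90, and Mal at 0.995 and 1.01. Fewer mature-like cells and less RNA per cell cannot be told apart in such a sum, and the share of mature-like cells was lower in the knock-in library. Outside the lineage, only Mbp in microglia-like cells reached that level among the classes compared (2.01 and 1.66), and it did not pass, where 0.371% of 2426 genes did. The widest ratio there was that of Mag in 60 wild-type and 100 knock-in Cajal-Retzius-like cells, 0.14 and 0.63 (log2 ratio 1.62), below the level the rule asks for, in a class where 1.69% of 2127 genes passed.

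Some mature-like clusters stood further from the other mature-like cells than the libraries did from each other. Those described here were picked from 9, and clusters are formed by differences between cells, so this is not a like comparison. A cluster of 33 cells led by Cryab, Gstp1 and Fth1 (15 wild-type, 18 knock-in) had the highest level of Cnp, Mal, Ermn, Cldn11, Mag, Mog and Opalin of the mature-like clusters in both libraries. Cnp was at 39.2 (wild-type) and 42.6 (knock-in) in this cluster, against 1.48 and 1.74 in the other mature-like cells, 26.5-fold and 24.5-fold higher. Mal was at 57.9 and 64.1 (17.9-fold and 18.2-fold), and Ermn at 12.1 and 10.5 (12.9-fold and 10.6-fold). Cldn11 and Opalin were 6.37-fold and 5.03-fold higher in the wild-type cells and 7.12-fold and 4.99-fold in the knock-in cells. Mbp was only 1.59-fold and 1.85-fold higher, at 38.2 and 43.3, and Mog 2.06-fold and 2.48-fold. Thus 8 of the 9 genes passed the rule upward in both libraries and Mbp in neither, with a background of 30.9% of 2824 and 30.5% of 2674 genes for a rise.

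These 33 cells stood apart in other measures as well. Their median share of mitochondrially encoded values was 1.40% for wild-type and 1.65% for knock-in cells (0.279% and 0.530% over all mature-like cells), and the median number of genes detected 3997 and 4450.5 (2217 and 2248). Malat1, a transcript kept in the nucleus, was at 159.1 and 177.2, against 310.0 and 356.1 over all mature-like cells. No doublet was called among them. The part of these differences in the levels of the members was not tested. Without this cluster the summed level of the 9 genes in mature-like cells was 62.4 and 62.7, against 64.7 and 66.2 with it, and newly formed-like cells of the wild-type library stood at 98.5% of the mature-like level for Cnp, not 74.4%.

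A cluster led by Ctps (46 wild-type, 78 knock-in cells) had high levels of other members. Mbp was at 43.9 and 34.7, 1.87-fold and 1.5-fold that of the other mature-like cells, Mobp at 17.3 and 13.3 (2.43-fold and 1.79-fold) and Opalin at 5.6 and 4.66 (2.18-fold and 1.93-fold). Ermn was 1.04-fold in both, and Cnp 1.14-fold and 0.99-fold. Only Mobp and Opalin passed the rule, and only in the wild-type library, where 6.08% of 2203 genes rose (2.19% of 2058 in the knock-in library). In a cluster led by Piezo2 and Enpp6 (198 and 240 cells), Opalin was lower, 1.44 and 1.34 against 2.87 and 2.79 in the other mature-like cells. Mal was at 2.37 and 2.58 there against 4.17 and 4.92, while Mbp was 1.21-fold and 1.19-fold and Mobp 1.36-fold and 1.32-fold higher. Opalin passed the rule there in the knock-in library only (log2 ratio -1.002), where 1.92% of 2033 genes fell, and its wild-type value of -0.95 was just short of it (2.87% of 2127 genes fell). The 3 clusters thus differed in which of the 9 genes stood highest or lowest. Their order by level was the same in both libraries for every member except Mbp and Mobp. For Mbp and Mobp the cluster led by Ctps was highest in the wild-type library and that led by Cryab in the knock-in library.

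**Figure D3:**
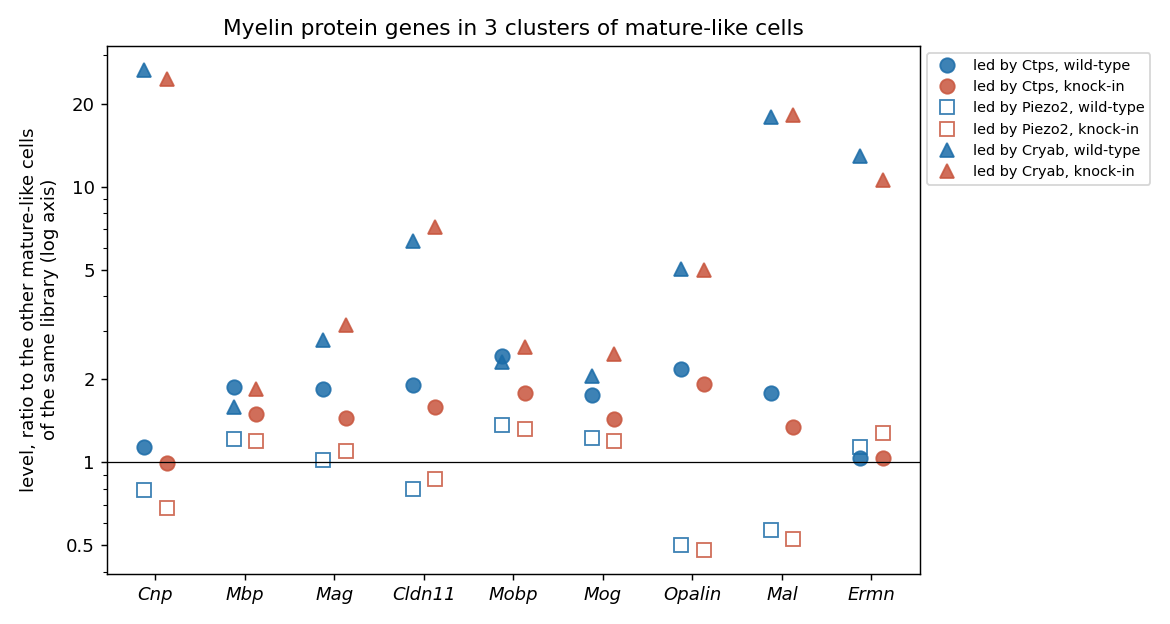
Level of each myelin protein gene in the mature-like clusters led by Ctps (circles), Piezo2 (squares) and Cryab (triangles) as a ratio to the other mature-like cells of the same library (y axis, log scale), wild-type in blue and knock-in in red. In the cluster led by Cryab the ratio runs from 1.59 for Mbp to 26.5 for Cnp in the wild-type library.

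Across single mature-like cells the 9 genes were only loosely tied. Pearson's r between pairs of members had a median of 0.126 over 1467 wild-type and 0.136 over 1424 knock-in cells. The highest was 0.288 for Mbp and Mobp in the wild-type and 0.234 for Mal and Opalin in the knock-in library. Cells of 1 library share their preparation, and in values this sparse a weak correlation is no finding. Across 22 pairs of class and library, by contrast, the genes most like the mean of the 9 members on log2 of level plus 0.1 were Prr5l (r = 0.975), the unnamed transcripts Gm48370 and C030029H02Rik (0.975 and 0.971) and Galnt6 (0.967). The pairs share 2 libraries and differ chiefly by 1 class, so r describes these classes only. Ermn was most like Galnt6 (0.989), Mag most like Prr5l (0.978), Opalin most like Gm48370 (0.985) and Cnp most like Pde8a (0.943). Mal and Cldn11 were each other's nearest gene (0.984). The genes nearest to the mean were close to 0 in newly formed-like cells (C030029H02Rik 0 and 0.080, against 5.34 and 5.32 in mature-like cells), which sets them with Mal and Ermn rather than with Mbp.

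Outside the lineage all 9 genes were present at a low level. Their sum over the named cells was 3.62% of the mature-like sum for wild-type and 3.81% for knock-in cells. It was lowest in pyramidal neuron-like cells (1.95% and 1.85%) and, among classes of 50 or more cells per library, highest in microglia-like cells (8.83% and 8.08%). As a share of its own mature-like level, Mobp was lowest over these cells (1.40% and 1.73%) and Cnp highest by far (25.4% and 19.7%). Mbp was at 3.40% and 3.33%, Mag at 1.73% and 2.08%, Mal at 7.11% and 7.84%, Cldn11 at 4.89% and 5.90%. Many of these values were 1s, and with every 1 set to 0 the sum fell to 2.42% and 2.62% and Cnp to 14.3% and 11.2%.

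**Figure D4:**
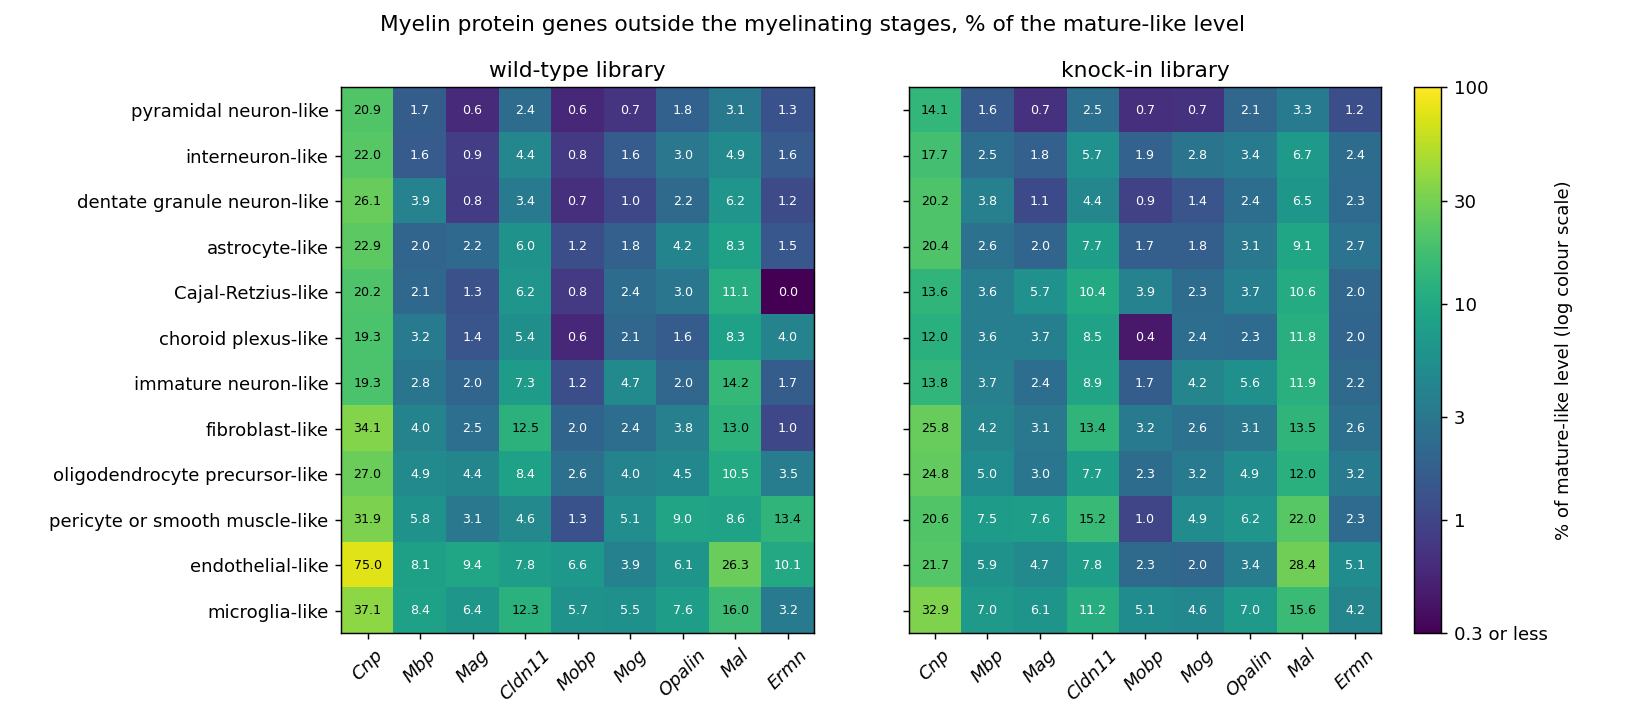
Level of each myelin protein gene (columns) in each class outside the newly formed and mature stages (rows) as a percent of the mature-like level of the same library (log colour scale, value printed in each field), wild-type left and knock-in right. Cnp is the brightest column of nearly every class, from 12.02% to 75.02%, and pyramidal neuron-like cells and microglia-like cells are at the dark and bright ends of the classes that hold 50 cells or more per library.

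Among microglia-like cells the level differed by cluster. Mbp was at 2.91 for wild-type and 2.42 for knock-in cells in the cluster led by Inpp5d, at 2.06 and 2.64 in that led by Cst3, and at 1.26 and 0.87 in that led by P2ry12. The first cluster had a median of 2384.5 and 2430 genes detected per cell and the third 3505 and 3803. An unnamed cluster led by the macrophage genes Lyz2 and Mrc1 (47 and 82 cells) had higher Mbp, 11.0 and 11.6, with Mag at 4.81 and 4.36. Its ratio of Mbp to Mag (2.29 and 2.65) was near that of mature-like cells (2.20 and 2.15).

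The proportions of the members differed between neurons and mature-like cells. Among neurons called dentate granule-like, Mbp was at 0.945 for wild-type and 0.902 for knock-in cells, 3.92% and 3.80% of the mature-like level, while Mag was at 0.092 and 0.122 (0.836% and 1.10%) and Mobp at 0.050 and 0.074 (0.664% and 0.949%). The ratio of Mbp to Mag was 10.3 and 7.41 in these cells, against 2.03 and 2.86 in astrocyte-like cells and 6.17 and 4.94 in pyramidal neuron-like cells. A value of 2 or more was seen for Mbp in 22.4% and 21.99% of dentate granule neuron-like cells and for Mag in 0.641% and 0.865%. In pyramidal neuron-like cells Mbp had such a value in 7.48% and 7.55%. Median genes detected were alike in these neurons (the largest dentate cluster 3875.5 and 4165, the largest pyramidal cluster 4154 and 4253), and pyramidal clusters differed too: Mbp was at 1.32 and 0.71 in the cluster led by Unc5d and at 0.16 and 0.18 in that led by Nectin3. High ratios of Mbp to Mag were not particular to the dentate cells: unnamed clusters with similar numbers of genes detected had 11.4 and 20.8 (led by Gm42705), 11 and 12 (led by Pde11a) and, led by Vwc2l, 24 for wild-type but 1.6 for knock-in cells. With Mag this low the ratio rests on few values, and the part of the authors' processing and of free RNA in it was not tested.

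**Figure D5:**
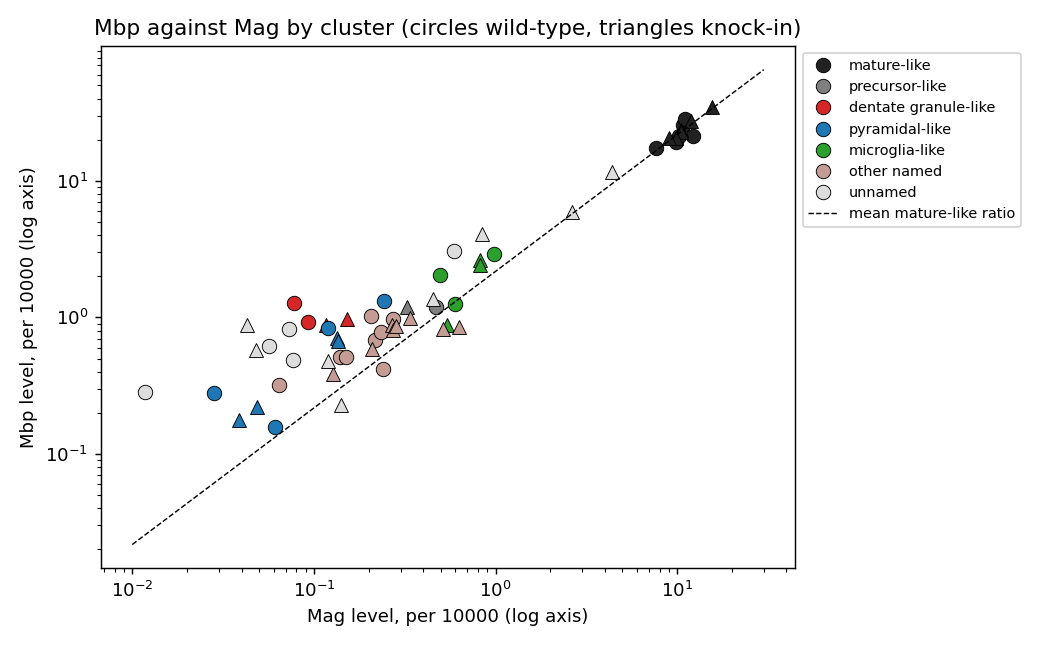
Mbp level against Mag level per 10000 (both axes log) for each cluster with at least 50 cells in a library, circles wild-type and triangles knock-in, coloured by class, with a dashed line at the mean mature-like ratio. Microglia-like clusters have ratios of 1.62 to 4.15 and lie near the line, while dentate granule-like clusters lie above it, with Mbp between 0.89 and 1.27 at Mag levels of 0.078 to 0.15.

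Cldn11, which also seals junctions outside the brain, had 1 further place. In an unnamed cluster led by Slc47a1, Bnc2 and Tbx15 (24 wild-type, 87 knock-in cells) it was at 2.98 and 2.52, and 50% (95% interval 29.1 to 70.9%) and 41.4% (30.9 to 52.4%) of cells had a value of 2 or more. It made up 45.7% and 42.7% of the summed level of the 9 genes there, against 15.3% and 16.1% in fibroblast-like cells. Mag was at 0.51 and 0.45 in the same cluster, and this cluster was singled out after its values were seen.

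Some members share their locus with other genes. Gm38642 lies on the same strand within Mobp and was itself at 0.83 and 0.88 in mature-like cells, Dnajc7 overlaps Cnp and Galnt5 overlaps Ermn on the opposite strand (0.75 and 0.70, and 1.24 and 1.18). How reads in the overlaps were assigned is not given in the sources used here, so values of Mobp, Cnp and Ermn are uncertain to that extent.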

How the data were processed

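Single-cell transcripts of hippocampus were measured in 1 pooled library per genotype. The authors' deposited table holds genes by cells in whole numbers, used here as a score: the narrow band of totals per cell (4846 to 14501) and the name of the table are those of a depth-corrected assay. Seurat 3.0.0 and the build GRCm38 are named in the submitters' processing notes; aligner, cell filter and doublet removal are not given in the sources used here. Depth is thus unknown, and no count model was run.

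With scanpy 1.11.5 (Python 3.11.15, scikit-learn 1.9.0, igraph 0.11.9), cells were scaled to 10000, log-transformed and clustered on 2000 variable genes without the 9 members (30 principal components, 15 neighbours, Leiden resolution 1), and lineage cells were clustered again (20 components). Clusters were named for the class with most markers counted (above 0 in at least 25% of cells, at 1.5-fold or more, at least 3); this naming rule was set after clusters had been seen. Mixed clusters stayed unnamed. Scrublet ran per library (expected rate 6%). Levels were sums of values per 10000; log2 ratios used 0.1 added to each level, and classes with under 50 cells in a library were not compared between libraries. The size rule was also run on simulated sums with planted changes. These held counting error only, so they do not speak to variation between cells or libraries. All 9 members are named, with the 3 most abundant genes of each list available for naming, genes past the rule and those most alike. The members and lists were chosen with earlier results of these data known. Alternatives covered clustering, doublets, filters, the added constant, the minimum level, the denominator, cluster weights and thinning to 1000 per cell.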

Additional observations from a re-analysis of the deposited data

How the results depend on the processing

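The median ratio in mature-like cells stayed below the size rule under the alternatives, but changed sign with equal cluster weights (-0.035, against 0.057). The count of members at 50% or more of the mature-like level in newly formed-like cells was 5 (wild-type) and 4 (knock-in). It was 7 and 4 when cells were classed singly by markers. Under the other alternatives that gave a value it stayed at 5 and 4. None of those regrouped the cells, and the added constant does not enter a percent of the mature-like level, so they say little about its stability. In the wild-type library the number of members past that line thus depended on how cells were classed. The summed level of the 9 genes in mature-like cells was 62.9 (wild-type) and 63.0 (knock-in) at Leiden resolution 2, and 62.4 and 62.7 without the cluster led by Cryab, an alternative chosen after seeing the data. With values of 1 set to 0, the sum outside the lineage was 2.42% and 2.62% of the mature-like sum. In mature-like cells 20 genes passed the size rule with no minimum level, 5 with a minimum of 5 per 10000 and 4 with 1 added to each level, against 9. The newly formed-like class did not form at resolution 2 or with 15 principal components, so its results gave no value there. For Mal in the knock-in library, the log2 ratio of newly formed-like over precursor-like cells was -1.31, and 0.33 when cells were classed one by one by markers; the cause was not tested. No paired analysis was possible because each genotype is 1 library, and for the same reason no replicate could be left out.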

Other observations

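Unnamed and mixed clusters of the lineage were left out of the classes above. In 40 wild-type and 67 knock-in cells that carried both lineage and dentate granule neuron genes, Mbp was at 7.20 and 5.91 and Mag at 3.71 and 2.64 per 10000, and 27.5% and 26.9% of these cells were called doublets. A cluster led by mitochondrial genes (180 and 144 cells) had Mbp at 3.07 and 4.09. A small cluster with pyramidal neuron genes (20 and 25 cells) had Mbp at 3.52 and 5.48, with a value of 2 or more in 90% and 92% of cells, and 10% and 28% of its cells were called doublets.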
